A study of Mus musculus with 6 samples.

Results

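The 29 genes described here make, sense, export or store sterols. They comprise 18 enzymes of sterol synthesis (7 of the mevalonate arm and 11 that lead from squalene to sterol), 5 genes of sterol sensing, and 6 genes of cholesterol efflux and storage. They were chosen by symbol, and each symbol matched 1 of the 55401 gene identifiers of the count table. RNA sequencing was performed on microglia isolated from perfused mouse brain with beads against CD11b, a surface protein that microglia share with other myeloid cells. Microglia of MRL/lpr mice, which carry the lpr mutation of the death receptor gene Fas and develop a lupus-like disease, were compared with microglia of MRL/mpj mice, the matching strain without that mutation, in 3 libraries per strain. All mice were 6 weeks old and untreated. The study worked with female mice, but the sex of the sequenced animals is not given in the sources used here. The labels do not say whether the libraries of a strain came from separate animals or from pools, although a legend of the study counts as many mice as libraries in each sequenced group. All p-values therefore measure only the spread between these libraries, which may be technical.

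Library totals lay between 45481609 and 49846634 counts. Fas itself did not separate the strains, with 9.81, 5.99 and 7.13 CPM (counts relative to the library total, scaled by the trimmed mean of M-values) in MRL/lpr 1, 2 and 3 and 8.29, 8.64 and 6.96 in MRL/mpj 1, 2 and 3 (log2 fold change -0.059, SE 0.21, adjusted p = 0.887, edgeR). The count covers the whole gene, does not show where reads lie relative to the mutation, and therefore does not check the labels. The strain names below are those of the labels. Library MRL/lpr 3 stood apart, as the furthest of its strain from the strain mean in 46.0% of the 19554 genes that passed the filter on low counts. Its most counted gene, CT010467.1, held 6.38% of its counts, against 1.09% to 1.95% for the most counted gene of each remaining library. The mitochondrial share of counts was 3.06% to 3.49% in MRL/lpr and 5.84% to 6.38% in MRL/mpj. All 29 sterol genes passed the filter, and the lowest count of any of them in any library was 93.

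Cells obtain cholesterol by synthesis and by uptake of lipoproteins. Synthesis runs from acetyl-CoA through mevalonate and the isoprenoid diphosphates to squalene, which is closed into lanosterol and trimmed to cholesterol. When the endoplasmic reticulum is low in sterol, Scap carries the transcription factors SREBP (Srebf1 and Srebf2) to the Golgi for activation, and the Insig proteins hold Scap back when sterol is plentiful. Oxysterols, in contrast, activate the liver X receptors (Nr1h2 and Nr1h3), whose known targets include Abca1, Abcg1 and Mylip. In the brain, microglia take up myelin and cell debris and must export or esterify the cholesterol it contains.

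Promoters of the genes are shown first because SREBP acts together with the factor NF-Y at many genes of sterol synthesis. RefSeq promoters (build GRCm38.p6), each from 250 bases before to 50 bases after an annotated start, were found for 25 of the 29 genes. Fdps, Fdft1, Sqle and Abcg1 had no entry. The NF-Y box CCAAT, searched on both strands, occurred in at least 1 promoter of 14 of 15 synthesis enzymes, 4 of 5 sensing genes and 2 of 5 efflux and storage genes, beside 41.1% of 27025 genes and 37.4% of 32851 promoters searched. That search left out 1 chromosome, on which none of the 29 genes lies. Acat2 was the synthesis enzyme without a CCAAT box. The E-box CACGTG occurred in 3 of 15, 2 of 5 and 1 of 5 genes (8.09% of the 27025 genes searched). The motif TCACCCC, the left part of the classical sterol regulatory element, occurred in 1 of 15, 2 of 5 and 1 of 5 genes (5.61% of the 27025 genes searched). A match describes letters only, and binding was not measured. The promoters of 5 genes are given 5′ to 3′ along the gene's strand, with matches to these 3 motifs or their reverse complements in capitals.
Hmgcs1 (chr13:119690101-119690400, plus strand), the synthase that makes HMG-CoA, held 4 CCAAT boxes and the only TCACCCC among the synthesis enzymes.
Hmgcs1: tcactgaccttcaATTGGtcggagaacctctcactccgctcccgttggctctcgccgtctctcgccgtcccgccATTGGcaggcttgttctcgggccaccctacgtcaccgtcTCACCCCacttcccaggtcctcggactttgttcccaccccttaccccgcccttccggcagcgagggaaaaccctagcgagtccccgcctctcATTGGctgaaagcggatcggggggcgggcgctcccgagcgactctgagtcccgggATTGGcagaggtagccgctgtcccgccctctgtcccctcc
Idi1 (chr13:8885356-8885655, plus strand), the synthesis enzyme with the largest fold change, held 2 CCAAT boxes.
Idi1: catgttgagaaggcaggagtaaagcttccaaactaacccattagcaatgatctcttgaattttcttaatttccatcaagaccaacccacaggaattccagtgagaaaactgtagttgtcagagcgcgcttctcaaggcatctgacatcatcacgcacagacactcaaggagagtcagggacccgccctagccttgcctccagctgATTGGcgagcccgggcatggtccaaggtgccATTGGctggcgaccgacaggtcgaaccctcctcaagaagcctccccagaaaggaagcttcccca
Msmo1 (chr8:64733529-64733828, minus strand), an enzyme of the later steps that was lower in MRL/lpr, held 3.
Msmo1: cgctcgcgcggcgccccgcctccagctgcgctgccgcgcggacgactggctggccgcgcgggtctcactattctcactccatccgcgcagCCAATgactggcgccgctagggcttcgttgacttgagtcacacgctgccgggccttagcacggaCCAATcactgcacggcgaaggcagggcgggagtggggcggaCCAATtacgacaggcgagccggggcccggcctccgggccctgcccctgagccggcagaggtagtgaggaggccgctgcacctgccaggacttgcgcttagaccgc
Insig1 (chr5:28071162-28071461, plus strand), a sensing gene that was higher in MRL/lpr, held 1 CCAAT box and 1 E-box.
Insig1: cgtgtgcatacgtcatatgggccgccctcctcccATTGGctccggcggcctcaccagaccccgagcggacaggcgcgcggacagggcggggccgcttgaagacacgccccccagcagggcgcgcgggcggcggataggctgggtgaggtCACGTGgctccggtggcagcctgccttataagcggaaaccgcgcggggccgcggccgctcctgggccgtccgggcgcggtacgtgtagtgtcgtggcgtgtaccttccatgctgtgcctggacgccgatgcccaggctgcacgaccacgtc
Soat1 (chr1:156474279-156474578, minus strand), the gene with the largest change of all 29, held 1 CCAAT box.
Soat1: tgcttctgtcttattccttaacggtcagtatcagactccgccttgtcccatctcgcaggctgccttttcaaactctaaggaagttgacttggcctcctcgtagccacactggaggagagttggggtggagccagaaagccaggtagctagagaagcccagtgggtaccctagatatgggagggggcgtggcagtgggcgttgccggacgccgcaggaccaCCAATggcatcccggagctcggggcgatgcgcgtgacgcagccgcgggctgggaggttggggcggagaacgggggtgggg

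The synthesis enzymes were either lower in MRL/lpr or not distinguishable between the strains. At an adjusted p under 0.05, 4 of the 18 were lower and 0 were higher, beside 9.06% lower and 11.1% higher among all 19554 genes tested (20.2% in either direction). By DESeq2, 5 were lower and 0 higher, beside 2034 lower and 2374 higher over all genes. An unadjusted p under 0.05 in edgeR was found in 6 of the 18, all with negative fold changes. It was found in 6224 of the 19554 genes tested. Over all genes by edgeR, 2178 were higher and 1772 lower, and with scaling by library size only 1634 were higher and 2790 lower. The fold change was negative in 15 enzymes and positive in 3, with a median log2 value of -0.34 against -0.0093 over all genes tested. In 9 of the 18, all 3 MRL/lpr libraries lay below all 3 MRL/mpj libraries, which was the case for 19.4% of all genes (all MRL/lpr above in 19.6%). The count of 4 depended on single libraries, as it was 0 without MRL/mpj 1 or without MRL/mpj 3 and 1 without MRL/mpj 2. It was 3 without MRL/lpr 1 or without MRL/lpr 2, and 5 without MRL/lpr 3. The number of lower genes over all genes also moved. It was 1177, 1203 and 1184 without MRL/mpj 1, 2 and 3, and 1409, 1405 and 1971 without MRL/lpr 1, 2 and 3. In bulk RNA, fewer cells of a type and less RNA per cell cannot be told apart.

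**Figure D1:**
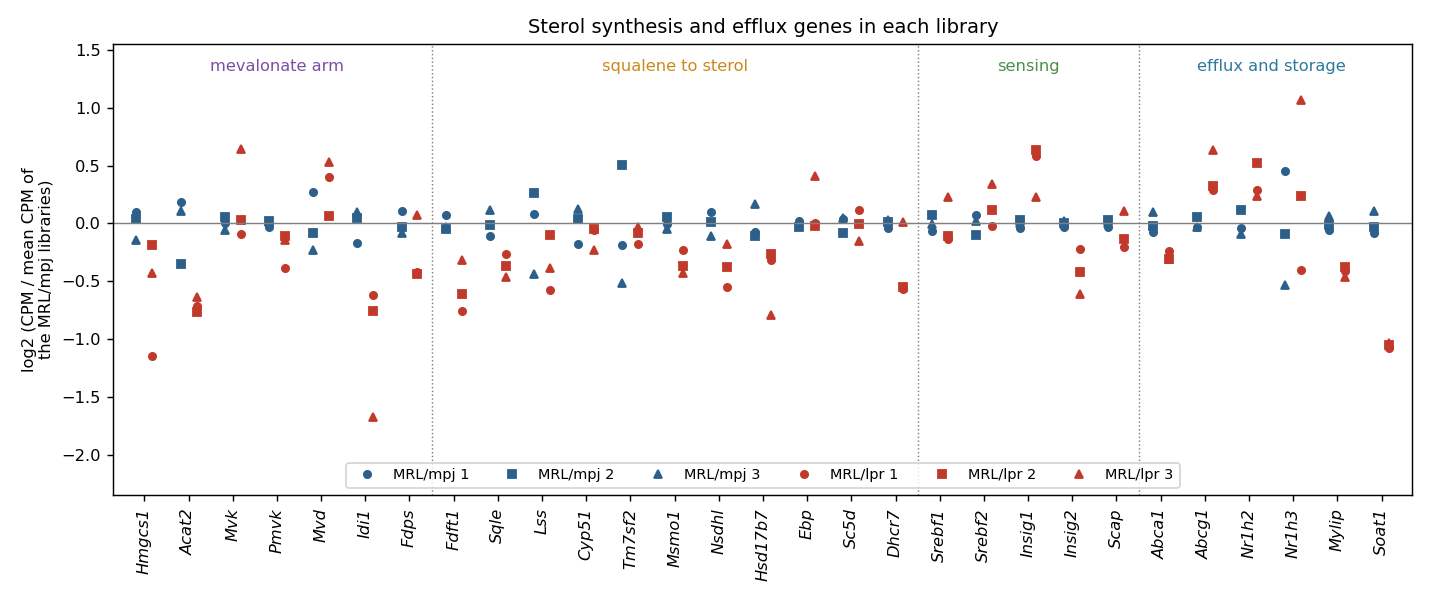
Level of each of the 29 genes in each library, as log2 of its CPM over the mean CPM of the MRL/mpj libraries (vertical axis), with genes in pathway order along the horizontal axis, MRL/mpj in blue and MRL/lpr in red. The MRL/lpr points lie below the MRL/mpj points in 9 of the 18 enzymes, and those of Soat1 lie together furthest below them with little spread.

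Within the mevalonate arm, Idi1, which isomerises isopentenyl diphosphate, fell most. It had 8.13, 7.35 and 3.90 CPM in MRL/lpr 1, 2 and 3 (6.46 ± 2.25, mean ± SD, n = 3) and 11.1, 12.9 and 13.4 CPM in MRL/mpj 1, 2 and 3 (12.4 ± 1.2). All MRL/lpr libraries were below all MRL/mpj libraries, and MRL/lpr 3 was by far the lowest. The log2 fold change was -0.94 (SE 0.25, adjusted p = 0.0262, edgeR), and the adjusted p was 0.0548, 0.0831 and 0.0903 without MRL/mpj 1, 2 and 3. Its related copy Idi2 had at most 4 counts in any library.

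Acat2, the cytosolic thiolase that joins acetyl-CoA units ahead of mevalonate, was also lower in MRL/lpr. It had 8.93, 8.63 and 9.4 CPM in MRL/lpr (8.99 ± 0.39, n = 3) and 16.7, 11.5 and 15.7 CPM in MRL/mpj (14.6 ± 2.76). The MRL/lpr libraries lay close together, and MRL/mpj 2 lay nearest to them without overlap. The log2 fold change was -0.70 (SE 0.16, adjusted p = 0.0136, edgeR), with an adjusted p of 0.0657 without MRL/mpj 1 and 0.0596 without MRL/mpj 3. Reads of Acat2 may be shared with its near-identical copy Acat3, which had 70 to 134 counts per library and no detectable difference (log2 fold change -0.23, SE 0.30).

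Hmgcs1, the synthase that makes HMG-CoA, had 19.0, 36.9 and 31.1 CPM in MRL/lpr and 44.8, 43.1 and 38.0 CPM in MRL/mpj. The groups did not overlap, but MRL/lpr 1 was far below the other libraries of its strain, and the log2 fold change of -0.53 (SE 0.22) did not pass the test (adjusted p = 0.153, edgeR). It passed in DESeq2 (adjusted p = 0.0350) and without MRL/lpr 2 (log2 fold change -0.75, adjusted p = 0.0443, edgeR). Pmvk, the kinase after mevalonate kinase, likewise had non-overlapping libraries, with 10.04 to 12.2 CPM in MRL/lpr and 12.8 to 13.3 in MRL/mpj (log2 fold change -0.21, SE 0.13). The other 3 enzymes of this arm overlapped between strains. Log2 fold changes were 0.23 (SE 0.20) for mevalonate kinase Mvk, 0.35 (SE 0.18) for the decarboxylase Mvd and -0.24 (SE 0.17) for farnesyl diphosphate synthase Fdps. For Mvk, MRL/lpr 3 alone had 14.9 CPM, against 8.95 to 9.92 CPM in the remaining libraries, and the value was -0.025 without it.

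Of the 11 enzymes from squalene to sterol, Fdft1 and Msmo1 were lower in MRL/lpr. Fdft1, squalene synthase and the first step committed to sterols, had 8.38, 9.26 and 11.4 CPM in MRL/lpr (9.67 ± 1.53, n = 3) and 14.9, 13.7 and 13.8 CPM in MRL/mpj (14.1 ± 0.64). The groups did not overlap (log2 fold change -0.55, SE 0.15, adjusted p = 0.0267, edgeR). Without MRL/lpr 1 or 2 the adjusted p was 0.0888 or 0.0819, and without MRL/mpj 1, 2 or 3 it was 0.0973, 0.0689 or 0.0710. Fdft1 shares 774 bases with Ctsb on the opposite strand, a gene with 101882 to 149275 counts per library that was itself lower in MRL/lpr (log2 fold change -0.23, SE 0.052, adjusted p = 0.0131, edgeR). Whether the counting used strand is not given in the sources used here, so the part of Ctsb reads in the Fdft1 count was not tested.

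Msmo1, the methylsterol monooxygenase whose promoter is given with the motifs, showed a smaller but tight difference. It had 22.9, 20.9 and 20.004 CPM in MRL/lpr (21.3 ± 1.49, n = 3) and 26.8, 27.9 and 26.1 CPM in MRL/mpj (26.9 ± 0.95). The groups did not overlap (log2 fold change -0.34, SE 0.097, adjusted p = 0.0349, edgeR). The adjusted p was 0.0957 without MRL/lpr 2, 0.0624 without MRL/lpr 3, and 0.0961, 0.125 and 0.0730 without MRL/mpj 1, 2 and 3.

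A further 3 of these enzymes had lower, non-overlapping MRL/lpr libraries without passing the test. Nsdhl, which acts after Msmo1 in removing methyl groups, had 13.2, 14.9 and 17.0 CPM in MRL/lpr and 20.6, 19.4 and 17.8 in MRL/mpj (log2 fold change -0.36, SE 0.13, adjusted p = 0.0804, edgeR). It passed without MRL/lpr 3 (log2 fold change -0.46, adjusted p = 0.0309, edgeR). Hsd17b7, the ketoreductase of the same demethylation, had 4.47 to 6.46 CPM in MRL/lpr and 7.18 to 8.71 in MRL/mpj (log2 fold change -0.44, SE 0.19, adjusted p = 0.159, edgeR). Squalene epoxidase Sqle, a rate-controlling enzyme of the pathway, had 5.29 to 6.06 CPM in MRL/lpr and 6.75 to 7.88 in MRL/mpj (log2 fold change -0.36, SE 0.16, adjusted p = 0.164, edgeR).

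The remaining 6 enzymes overlapped between the strains. Dhcr7, the reductase that makes cholesterol from 7-dehydrocholesterol, had 19.8, 20.1 and 29.6 CPM in MRL/lpr and 28.6, 29.5 and 29.9 in MRL/mpj. Only MRL/lpr 3 reached the MRL/mpj level, and the log2 fold change moved from -0.34 (SE 0.15, adjusted p = 0.163) to -0.55 without it (adjusted p = 0.00269, both edgeR). Lanosterol synthase Lss ranged from 10.3 to 14.3 CPM in MRL/lpr and from 11.3 to 18.4 in MRL/mpj (log2 fold change -0.34, SE 0.20). The log2 fold changes of the demethylase Cyp51 (-0.11, SE 0.11), the sterol isomerase Ebp (0.15, SE 0.12) and the desaturase Sc5d (-0.0093, SE 0.11) were close to 0 beside their errors. Tm7sf2, a sterol reductase, had 7.51 to 8.33 CPM in MRL/lpr and 7.45, 12.1 and 5.94 in MRL/mpj 1, 2 and 3. Its log2 fold change was -0.093 (SE 0.25) with all libraries and 0.25 without MRL/mpj 2. The signs of Ebp and Sc5d also depended on MRL/lpr 3, with values of -0.0038 and 0.059 without it.

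**Figure D2:**
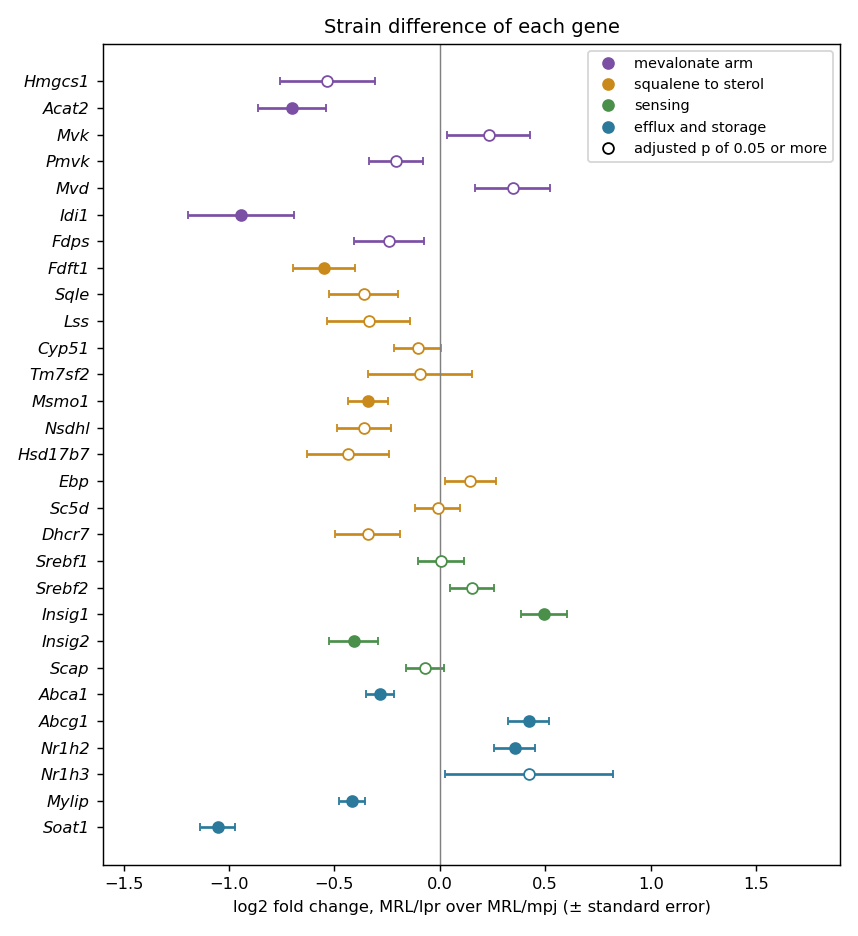
Log2 fold change of MRL/lpr over MRL/mpj (horizontal axis) for each gene, with standard error bars, filled where the adjusted p of edgeR's test was under 0.05 and open otherwise, coloured by role. Filled points are 4 synthesis enzymes, all left of 0, then Insig1 and Insig2 on opposite sides, and 5 of the 6 efflux and storage genes on both sides.

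In the sensing group, the paired regulators Insig1 and Insig2 moved in opposite directions. Insig1, an SREBP target whose protein holds Scap in the endoplasmic reticulum, had 89.3, 92.8 and 69.8 CPM in MRL/lpr (84.0 ± 12.4, n = 3) and 58.2, 60.9 and 59.9 CPM in MRL/mpj (59.7 ± 1.36). All MRL/lpr libraries were above all MRL/mpj libraries, with MRL/lpr 3 nearest to them (log2 fold change 0.49, SE 0.11, adjusted p = 0.0109, edgeR). The adjusted p was 0.0520 without MRL/mpj 1, 0.0603 with scaling by library size only (log2 fold change 0.37) and 0.0952 with limma on log2 FPKM (0.36).

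Insig2, which acts on Scap in the same way, had 22.6, 19.7 and 17.3 CPM in MRL/lpr (19.8 ± 2.65, n = 3) and 25.8, 26.5 and 26.8 CPM in MRL/mpj (26.4 ± 0.51). The order was the reverse of Insig1, and again the groups did not overlap (log2 fold change -0.41, SE 0.11, adjusted p = 0.0329, edgeR). The call was lost without MRL/lpr 2 (adjusted p = 0.0882), MRL/lpr 3 (0.0568) or MRL/mpj 1, 2 or 3 (0.0842, 0.0989 and 0.0982). The ratio of Insig1 to Insig2 counts was 3.96, 4.71 and 4.04 in MRL/lpr and 2.26, 2.30 and 2.24 in MRL/mpj. This ratio does not depend on library scaling, and every MRL/lpr library exceeded every MRL/mpj library.

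The SREBP genes and their escort showed no detectable difference. Srebf1, which drives mainly fatty acid genes, had 51.8, 52.8 and 66.7 CPM in MRL/lpr and 54.4 to 59.8 in MRL/mpj (log2 fold change 0.0044, SE 0.11). Srebf2, the main activator of sterol synthesis, had 69.3, 76.4 and 89.2 CPM in MRL/lpr and 65.6 to 74.1 in MRL/mpj (log2 fold change 0.15, SE 0.10). Scap had 78.6, 82.5 and 97.3 CPM in MRL/lpr and 88.5 to 92.1 in MRL/mpj (log2 fold change -0.069, SE 0.090). In all 3 genes MRL/lpr 3 was the highest of the 6 libraries.

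The efflux and storage genes differed between the strains in both directions. At an adjusted p under 0.05, 2 of the 6 were higher in MRL/lpr (Abcg1 and Nr1h2) and 3 were lower (Abca1, Mylip and Soat1), beside 11.1% higher and 9.06% lower among all genes tested, with a median log2 fold change of 0.035. The libraries did not overlap in any of these 5, beside 39.0% of all genes tested. The 2 higher calls were lost without MRL/mpj 1 or without MRL/mpj 3, and that of Nr1h2 also without MRL/lpr 2.

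Soat1, which esterifies cholesterol for storage in lipid droplets, showed the largest difference of the 29 genes. It had 33.9, 34.6 and 34.9 CPM in MRL/lpr (34.5 ± 0.53, n = 3) and 67.5, 70.1 and 77.2 CPM in MRL/mpj (71.6 ± 5.0). The MRL/lpr libraries were nearly equal, and each was below every MRL/mpj library (2.08-fold, log2 fold change -1.05, SE 0.083, adjusted p = 2.51e-05, edgeR). Among the 29 genes, Soat1 was the only gene that also passed a log2 fold change of 1 in size, a rule that 8.34% of all genes met. Its log2 fold change stayed between -1.18 and -0.998 and passed the test in all 16 alternatives. The ratio of its counts to those of Nceh1, the gene for an enzyme that hydrolyses cholesterol esters, was 1.24, 1.26 and 1.16 in MRL/lpr and 1.87, 2.01 and 2.41 in MRL/mpj.

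Mylip, a ubiquitin ligase that targets lipoprotein receptors for degradation, was the other gene that passed in all 16 alternatives. It had 156, 160 and 151 CPM in MRL/lpr (156 ± 4.41, n = 3) and 200.4, 206 and 218 CPM in MRL/mpj (208 ± 8.71). The libraries of each strain lay close together without overlap (log2 fold change -0.42, SE 0.064, adjusted p = 0.00148, edgeR).

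The transporters Abca1 and Abcg1 moved in opposite directions. Abca1, which loads cholesterol onto lipid-poor apolipoprotein, had 478, 453 and 454 CPM in MRL/lpr (462 ± 13.8, n = 3) and 533, 552 and 601 CPM in MRL/mpj (562 ± 34.9). The groups did not overlap (log2 fold change -0.28, SE 0.065, adjusted p = 0.0129, edgeR), and the adjusted p was 0.0520 without MRL/lpr 2 and 0.0622 without MRL/mpj 3. Abcg1, which passes cholesterol to mature lipoprotein particles, had 154, 158 and 197 CPM in MRL/lpr (170 ± 23.4) and 124, 132 and 124 CPM in MRL/mpj (127 ± 4.6). MRL/lpr 3 was the highest, and all MRL/lpr libraries exceeded MRL/mpj (log2 fold change 0.42, SE 0.097, adjusted p = 0.0135, edgeR). The adjusted p of Abcg1 was 0.0601 without MRL/mpj 1, 0.0588 without MRL/mpj 3 and 0.0561 with limma on log2 FPKM. The ratio of Abca1 to Abcg1 counts was 3.09, 2.86 and 2.31 in MRL/lpr and 4.30, 4.18 and 4.85 in MRL/mpj, again without overlap.

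Of the liver X receptors, Nr1h2 was higher in MRL/lpr. It had 93.3, 109.6 and 90.2 CPM in MRL/lpr (97.7 ± 10.4, n = 3) and 74.5, 82.9 and 71.9 CPM in MRL/mpj (76.4 ± 5.72), without overlap (log2 fold change 0.35, SE 0.096, adjusted p = 0.0287, edgeR). The adjusted p was 0.0999 without MRL/lpr 2, 0.106 without MRL/mpj 1, 0.113 without MRL/mpj 3, 0.157 with library size only (log2 fold change 0.23) and 0.175 with limma on log2 FPKM (0.23). Nr1h3 was the least counted of the 29 genes and varied widely, with 1.98, 3.08 and 5.48 CPM in MRL/lpr and 3.58, 2.46 and 1.81 in MRL/mpj. Its groups overlapped (log2 fold change 0.42, SE 0.40), and the value was -0.045 without MRL/lpr 3.

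**Figure D3:**
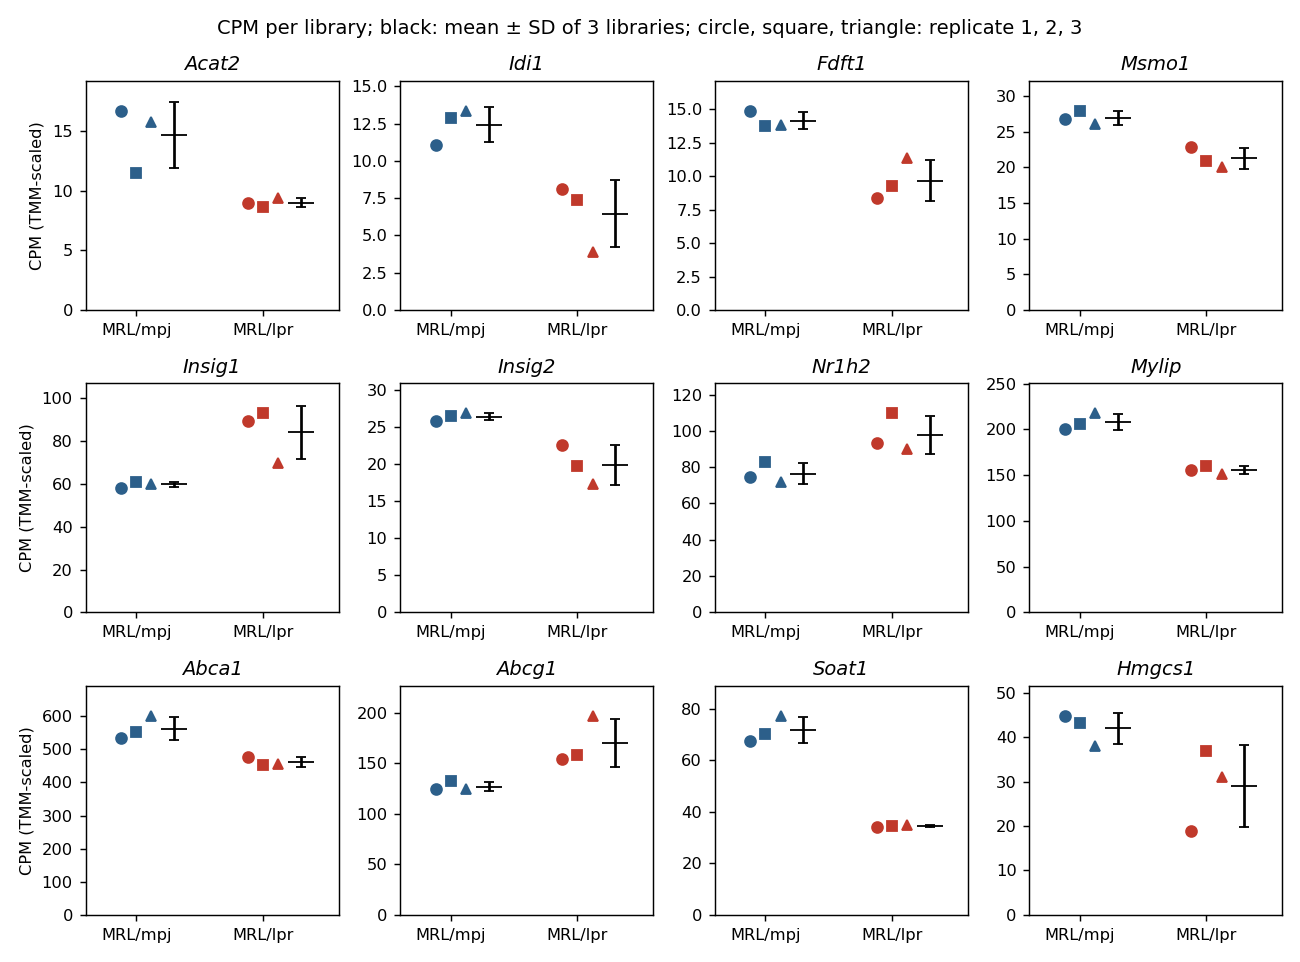
CPM (vertical axes from 0, TMM-scaled) of the 11 called genes and Hmgcs1 in each library of MRL/mpj (blue) and MRL/lpr (red), with the mean ± SD of 3 libraries in black. Soat1 shows the clearest separation, 33.9 to 34.9 CPM against 67.5 to 77.2, and the MRL/lpr libraries of Hmgcs1 spread from 19.0 to 36.9.

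Synthesis and efflux were then compared. The median log2 fold change of the 18 synthesis enzymes minus that of the 6 efflux and storage genes was -0.37, and -0.15 without MRL/lpr 3. Without that library the efflux and storage median was -0.16, and with library size only it was -0.087, where the median of all genes was -0.13. With all libraries the efflux and storage median of 0.035 lay in the gap between Abca1 (-0.28) and Nr1h2 (0.35). Of the 3 genes above it, Nr1h3 (0.42, SE 0.40) was not called. Without Nr1h3 the middle value would be that of Abca1, so the contrast between synthesis and efflux depends on this gene. Within each library, the mean log2 CPM of the synthesis enzymes minus that of the efflux and storage genes was -2.38, -2.45 and -2.54 in MRL/lpr (-2.46 ± 0.079, n = 3) and -2.31, -2.28 and -2.28 in MRL/mpj (-2.29 ± 0.017). The difference between the strain means was -0.17, with every MRL/lpr library below every MRL/mpj library and MRL/lpr 3 the lowest. Each gene has equal weight within its group, and Nr1h3 varied most among the efflux and storage genes. Its SD of log2 CPM was 0.73 in MRL/lpr and 0.49 in MRL/mpj. It rose from MRL/lpr 1 to 3 and fell from MRL/mpj 1 to 3. Both the separation of the strains and the place of MRL/lpr 3 depend on this least counted gene. No test was made on this score, because the genes were selected with results of these data known. In summed CPM both groups were lower in MRL/lpr. The synthesis enzymes summed to 254, 274 and 293 CPM in MRL/lpr and 329, 328 and 316 in MRL/mpj, a ratio of strain means of 0.845. The efflux and storage genes summed to 918, 919 and 933 CPM in MRL/lpr and 1004, 1046 and 1094 in MRL/mpj, a ratio of 0.881. The sums are weighted by the most abundant genes, and Abca1 alone had 453 to 601 CPM.

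Levels per length, taken from the deposited FPKM, were highest for Mylip and Abca1 among the 29 genes. Over all 6 libraries, Mylip had a mean of 50.6 FPKM, Abca1 44.3, Nr1h2 23.1, Insig1 20.6 and Abcg1 18.01. Ebp was the highest synthesis enzyme with 13.6 FPKM, and Soat1, with 4.90, lay within the range of the enzymes. Hmgcs1, with 5.39 ± 1.71 FPKM in MRL/lpr and 8.50 ± 0.71 in MRL/mpj (n = 3), followed among the enzymes. The lowest were Lss (1.13 FPKM), Nr1h3 (1.05) and Sqle (1.04), which do not differ beyond their spread. The liver X receptor genes differed widely in level, as Nr1h3 was near the bottom and Nr1h2 near the top in both strains.

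**Figure D4:**
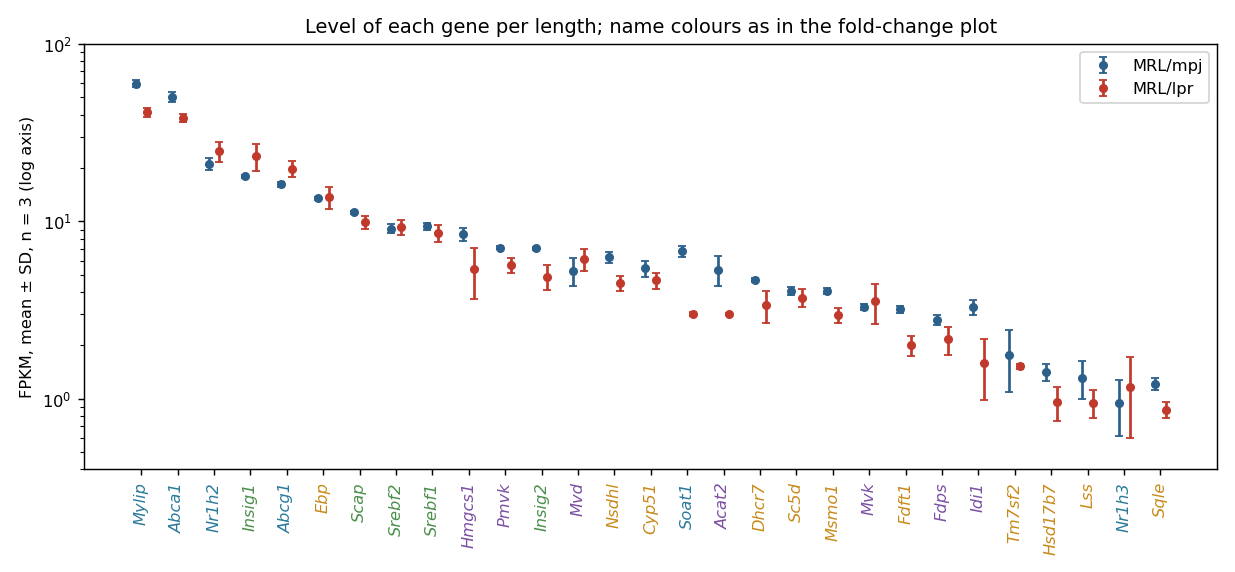
FPKM of each gene (vertical log axis, mean ± SD, n = 3) in MRL/mpj (blue) and MRL/lpr (red), in falling order of the mean over all libraries. Mylip and Abca1 lead at 50.6 and 44.3 FPKM, and Sqle is lowest at 1.04 FPKM.

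The genes were more variable among the MRL/lpr libraries. The median SD of log2 CPM over the 29 genes was 0.19 in MRL/lpr and 0.091 in MRL/mpj, beside 0.23 and 0.18 over all genes tested. MRL/lpr 3 was the furthest from its strain mean in 18 of the 29 genes, MRL/lpr 1 in 8 and MRL/lpr 2 in 3. Over all genes tested the shares were 46.0%, 26.8% and 27.2% for MRL/lpr 3, 1 and 2. In MRL/lpr 3 the genes did not deviate in a single direction, since it was the lowest library of all for Idi1 and Hsd17b7 and the highest for Abcg1, Ebp and Nr1h3.

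**Figure D5:**
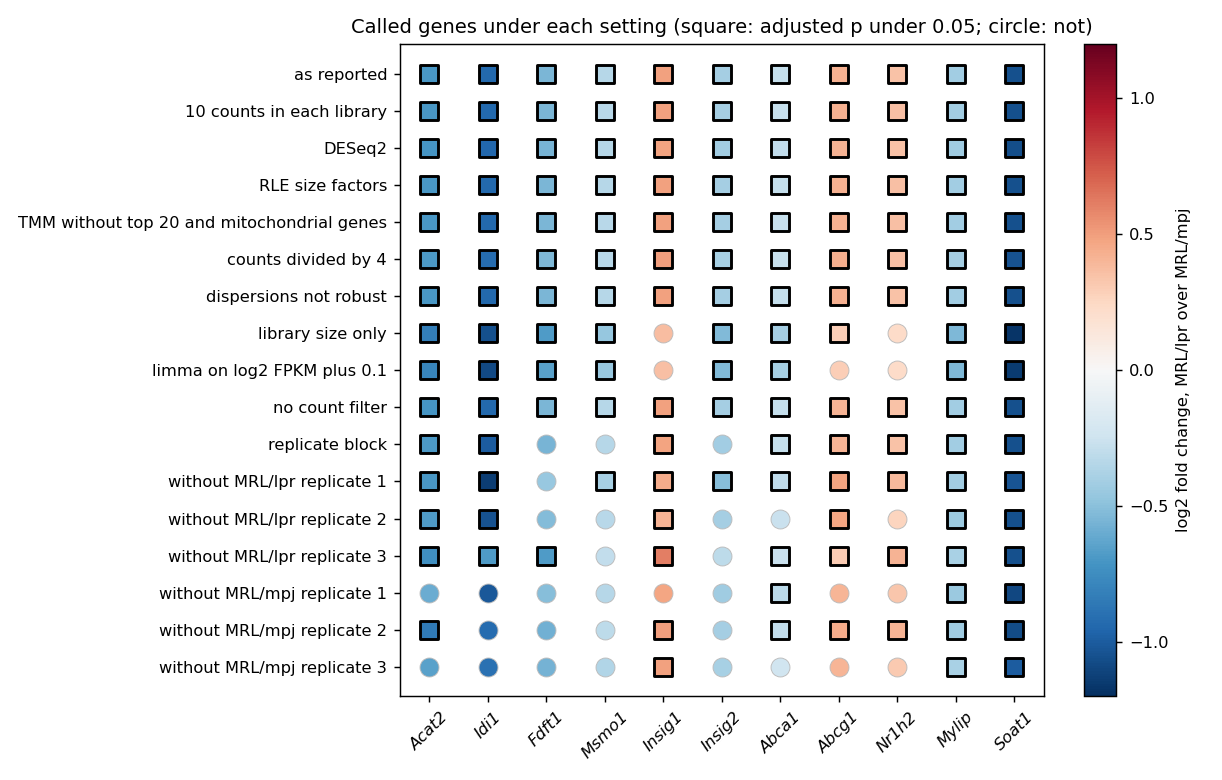
Log2 fold change (colour, MRL/lpr over MRL/mpj) of the 11 called genes (columns) under each setting (lines from top to bottom), with squares where the adjusted p was under 0.05 and circles where not. Mylip and Soat1 are squares in every line, and the other 9 genes lose the call in at least 1.

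Further genes of sterol handling were read from a list of 28. At an adjusted p under 0.05, 4 were higher and 2 lower in MRL/lpr by edgeR, a share of 21.4% that was near the 20.2% of all genes, with a median log2 fold change of 0.019. By DESeq2 4 were higher and 3 lower, and by limma on log2 FPKM 3 were higher and 6 lower. Over all genes, DESeq2 called 2374 higher and 2034 lower, and limma on log2 FPKM 1619 higher and 2530 lower. Cyp27a1, which makes an oxysterol, rose from 24.8 ± 3.15 CPM in MRL/mpj to 43.0 ± 2.11 in MRL/lpr (log2 fold change 0.80, SE 0.11, adjusted p = 0.000778, edgeR). Lbr, whose protein catalyses the same reduction as Tm7sf2, rose from 38.5 ± 2.57 to 66.2 ± 7.47 CPM (log2 fold change 0.78, SE 0.10, adjusted p = 0.00064, edgeR). Stard4, a cytosolic sterol carrier, rose as well (log2 fold change 0.43, SE 0.083, adjusted p = 0.00561, edgeR). Gramd1b, which moves cholesterol from the plasma membrane to the endoplasmic reticulum, was lower, with 1089, 1973 and 1764 counts in MRL/lpr and 3536, 4487 and 4286 in MRL/mpj (log2 fold change -1.17, SE 0.24, adjusted p = 0.0166, edgeR). Npc2, a lysosomal cholesterol carrier, was slightly lower (log2 fold change -0.21, SE 0.056, adjusted p = 0.0285, edgeR). Of 13 genes of the isoprenoid branch, which leads from farnesyl diphosphate to prenylation, dolichol and ubiquinone, 0 passed the test (median log2 fold change 0.065). An unadjusted p under 0.05 in edgeR was found in 1 of the 13, and in 6224 of the 19554 genes tested. By DESeq2 0 passed, and by limma on log2 FPKM 2 were lower.

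Markers of other brain cells also differed between the strains. The 12 microglia markers summed to 24068 to 26577 CPM in MRL/lpr and 27996 to 28642 in MRL/mpj. Of these markers, 4 were called lower, and 5 had positive fold changes without being called. Cx3cr1 had 226, 2819 and 247 CPM in MRL/lpr 1, 2 and 3 and 558 to 564 in MRL/mpj, so MRL/lpr 2 was far above all other libraries for this gene. Oligodendrocytes are a main site of sterol synthesis in brain, and their 9 markers summed to 87.8 to 101 CPM in MRL/lpr and 122 to 143 in MRL/mpj, with 2 of 8 tested lower. Opalin, the marker that was not tested, was at 0 in every library except MRL/mpj 2, where it had 19 counts. Sums were also lower in MRL/lpr for astrocyte markers (122 to 167 against 201 to 208 CPM, 1 of 9 lower), neuron markers (28.6 to 33.4 against 47.9 to 54.8, 2 of 9 lower), choroid plexus and ependyma markers (67.2 to 73.7 against 163 to 166, 5 of 8 lower) and border macrophage markers (51.4 to 53.1 against 55.6 to 64.4, 2 of 7 lower). The astrocyte difference lay in Slc1a3, with 50.3, 92.3 and 55.7 CPM in MRL/lpr and 131, 132 and 127 in MRL/mpj. Fold changes were positive in 4 of the 9 astrocyte markers and 3 of the 7 border macrophage markers, so neither list was lower as a group. The 5 lower choroid plexus and ependyma markers were Kl, Kcnj13, Folr1, Clic6 and Otx2, all of choroid plexus. The ependyma markers were not called, with log2 fold changes of -0.43 for Foxj1, 0.16 for Tmem212 and 0.33 for Ccdc153. Sums were higher in MRL/lpr for monocyte and neutrophil markers (362 to 402 against 316 to 359.9 CPM, 4 of 8 higher and 1 lower), B and plasma cell markers (24.1 to 28.3 against 9.65 to 11.4, 2 of 6 tested higher, Mzb1 at 0 in every MRL/mpj library) and T and NK cell markers (13.02 to 17.8 against 3.98 to 5.62, 4 of 7 higher). The 4 higher T and NK cell markers were the T cell genes Cd3e, Cd3g, Cd2 and Lck. The NK cell markers Ncr1 and Klrb1c were not called. Klrb1c had 23, 0 and 0 counts in MRL/lpr 1, 2 and 3 and 75, 16 and 82 in MRL/mpj 1, 2 and 3. Endothelial markers overlapped (2020 to 2165 against 1967 to 2025 CPM, 2 of 8 higher and 1 lower). The part of these cells and of the mitochondrial share in the sterol gene differences was not tested.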

How the data were processed

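RNA-seq of microglia from MRL/lpr and MRL/mpj mice was used, 3 libraries per strain, grouped by the strain in the labels. The authors deposited raw whole-number counts per gene, and FPKM values per library. The submitters' processing notes name cutadapt 1.9.3, HISAT2 2.0.4, Cufflinks, Cuffdiff 2.2.1 and GRCm38; the counting tool, annotation and strand setting are not given in the sources used here. The labels describe rRNA removal and stranded total RNA libraries, the methods mRNA purification. Counts piled up at multiples of 4 (1138 to 1288 genes per library had exactly 4 counts, 320 to 415 had 3 and 211 to 261 had 5), for a reason not given in the sources used here. Library totals were 45481609 to 49846634. Symbols and positions came from GENCODE M21, and promoters from RefSeq.

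Genes passing edgeR's filterByExpr (minimum count 10; 19554 genes) were scaled by TMM and tested with edgeR's quasi-likelihood test (edgeR 4.0.16, R 4.3.3, robust dispersions), adjusted by Benjamini-Hochberg over all genes tested. The study's methods use DESeq2 with a fold threshold. The test of DESeq2 1.42.0 served as an alternative, as did limma 3.58.1 on log2(FPKM + 0.1). Further alternatives were relative log expression size factors in edgeR, other filters and scalings, counts divided by 4, and leaving out each library. CPM values are relative to the TMM-scaled library total. The scripts were tested on simulated data. No pair of libraries was identical. An exact permutation test of 3 against 3 libraries cannot give a p below 0.1 and was not used. All 29 genes were named, and from other lists up to 3 called genes with the largest fold change in each direction. Members and lists were chosen with earlier results of these data known.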

Additional observations from a re-analysis of the deposited data

How the results depend on the processing

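Soat1 and Mylip kept their direction and call in all 16 alternatives, and the other 9 called genes kept their direction. Dividing counts by 4 ended none of the 11 calls. The number of genes lower in MRL/lpr was 1772, 2790 with library size only (which moved the median of all genes from -0.0093 to -0.13) and 1177 to 1971 leaving out single libraries. The 4 lower synthesis enzymes became 2 with a replicate block, which ended the calls of Fdft1 and Msmo1 (and, among the other genes, of Insig2), and 0 to 5 leaving out single libraries. The replicate number did not pair the libraries, with correlations of -0.041, -0.020 and -0.033 between deviations of same-numbered libraries. The 2 higher efflux and storage genes became 1 with library size only, 0 with limma on log2 FPKM and 0 to 2 leaving out single libraries. The synthesis minus efflux median (-0.37) ranged from -0.33 to -0.15 on leaving out single libraries. Signs turned for Srebf1, to -0.0032 in DESeq2, -0.12 with library size only, -0.12 with limma on log2 FPKM and -0.0041 with the replicate block. Leaving out single libraries, values ranged from -0.12 to 0.071 for Srebf1, -0.025 to 0.37 for Mvk, -0.0038 to 0.22 for Ebp, -0.045 to 0.72 for Nr1h3, -0.073 to 0.059 for Sc5d and -0.30 to 0.25 for Tm7sf2. The cause was not tested.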

Other observations

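Fatty acid synthesis shares SREBP control with sterol synthesis, and its 14 genes moved in both directions: 3 were higher and 3 lower in MRL/lpr at an adjusted p under 0.05 (edgeR), beside 11.1% higher and 9.06% lower of all genes tested, with a median log2 fold change of -0.15. DESeq2 gave 3 higher and 3 lower, and limma on log2 FPKM 1 higher and 3 lower. Over all genes, DESeq2 called 2374 higher and 2034 lower, and limma on log2 FPKM 1619 higher and 2530 lower. Acacb, an acetyl-CoA carboxylase, rose from 21.4 ± 0.88 CPM in MRL/mpj to 38.8 ± 6.61 in MRL/lpr (n = 3, log2 fold change 0.86, SE 0.13, adjusted p = 0.00113, edgeR). Acly, which supplies cytosolic acetyl-CoA, and Mid1ip1, an activator of the carboxylases, rose less (log2 fold changes 0.28 and 0.27). Of the desaturases, Scd1, Fads1 and Fads2 were lower and Scd2 was not called. Scd1 had 292, 321 and 257 counts in MRL/lpr and 733, 656 and 694 in MRL/mpj (log2 fold change -1.09, SE 0.13, adjusted p = 0.000415, edgeR). Fads2 and Fads1, which desaturate polyunsaturated fatty acids, had log2 fold changes of -0.56 (SE 0.14) and -0.44 (SE 0.068), and both passed the test. Scd2, with 9955, 9260 and 9437 counts in MRL/lpr and 17414, 4719 and 17554 in MRL/mpj, had a log2 fold change of -0.28 (SE 0.53), and MRL/mpj 2 was far below the other libraries of its strain.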
